A study of Mus musculus with 6 samples.

Results

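The hypothalamic fate transcription factors described here were Nkx2-1, Nkx2-2, Nkx2-4, Otp, Sim1, Skor1, Rax, Six6, Fezf1 and Hmx3. These 10 genes were taken by symbol from the 55471 genes counted, and each symbol was found once. Their transcripts were counted in 6 RNA-seq libraries from the rostral-most part of the telencephalic primordium in E11.5 mice, a tissue that gives rise to the front of the forebrain. The 3 control libraries came from DicerF/F embryos (genotype given as WT in the labels), which carry floxed Dicer alleles and no Cre. The 3 Rx-Dicer libraries came from RxCre-Dicer F/F embryos, in which Cre removes a segment of Dicer1, the gene of the RNase that matures most microRNAs. Wild-type and Rx3-Cre mice were kept on a CD1 background and floxed mice on C57BL/6. Cre is driven by regulatory sequences of Rax (also named Rx), itself one of the 10 genes, and the study describes recombination at this age as strongest in rostral and ventral telencephalon and lower in the neocortex. The study describes its replicates as biological and independent. Whether a library is 1 embryo or several is not stated, so p-values measure the spread between these libraries. In whole tissue, a change in the number of cells of a type and a change in RNA per cell cannot be told apart.

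The hypothalamus forms from the ventral forebrain next to the telencephalon. Sonic hedgehog from the ventral midline and the underlying mesoderm induces Nkx2-1 and Nkx2-2 there, Rax and Six6 mark the progenitors that hypothalamus shares with eye and pituitary territories, and Otp, Sim1 and Hmx3 specify neuroendocrine neurons. Several of these genes also act elsewhere: Nkx2-1 in the medial ganglionic eminence of the telencephalon, Rax and Six6 in the retina, and Fezf1 in telencephalic progenitors and the olfactory system.

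Read totals over genes were between 34471501 and 48373468 per library, so that 3 reads, the limit that a count of 0 allows, were worth between 0.0620 and 0.0870 CPM (counts scaled to a common library total). Intervals and limits of this kind cover counting error only. Emx2, a homeobox gene of the dorsal telencephalon, was strongly expressed in every library (4997 to 9840 normalised counts, that is, counts divided by the library's size factor). Of the same list, Lhx2 varied less (14070 to 22360), while Emx1 and Neurog2 varied more. Emx1 had 4764, 5286 and 2156 in control 1, 2 and 3 and 4291, 921 and 3615 in Rx-Dicer 1, 2 and 3. Neurog2 had 6177, 6080 and 2903 in control and 3323, 1485 and 2752 in Rx-Dicer. Dicer1, counted over all its exons and not only the floxed segment, had 6355, 7070 and 6270 normalised counts in control 1, 2 and 3 and 4777, 7002 and 4644 in Rx-Dicer 1, 2 and 3. For the targeted gene, the library labelled Rx-Dicer 2 therefore lay inside the control range, and the members' results are given with and without it. The log2 fold change of Dicer1 was -0.26 ± 0.17 (SE) over all libraries, with a DESeq2 adjusted p of 0.567, and -0.47 ± 0.11 without the library labelled Rx-Dicer 2. The latter is a description, since that library was set apart by its Dicer1 level.

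The comparison set genes of hypothalamic fate in the Rx-Dicer telencephalic primordium beside control. The members were chosen with earlier results of these data known, so their shares beside all genes are a description. Otp, Skor1, Hmx3 and Fezf1 were called higher in Rx-Dicer, and no member was called lower. A gene was called when its DESeq2 adjusted p over all genes tested was under 0.05 and its change exceeded the study's small minimum fold, which removed no call here (300 genes higher and 202 lower with or without it). By this rule 4 of the 10 genes were called higher, against 1.75% of the 17128 genes tested, and 0 were called lower, against 1.18%. At an unadjusted p under 0.05 by DESeq2, 6 of the 10 were higher, against 4.05% of all genes with a p-value, and 0 were lower, against 3.46%. Of the 10, 8 were tested and 2 (Nkx2-2 and Nkx2-4) had too few reads for an adjusted p, and the median log2 fold change was 1.58 over all 10 and 2.53 over the 8 tested, beside -0.0009 over all genes tested. In 6 of the 10 every Rx-Dicer library was above every control library, an ordering found in 8.55% of the genes tested. Without the library labelled Rx-Dicer 2 the same 4 genes were called, and without Rx-Dicer 1 or without Rx-Dicer 3 only 2, Skor1 and Fezf1, were called, Otp and Hmx3 then having no adjusted p. Without control 2 it was 3, and without control 1 or control 3 Nkx2-1 took the place of Hmx3 among the 4. With edgeR's quasi-likelihood test on genes filtered for low counts, 0 members passed after adjustment (edgeR adjusted p from 0.0827 for Skor1 to 0.245 for Hmx3 among the 4), 6 were higher at an unadjusted p under 0.05 (7.04% of all genes in that fit), and across all genes 8 were called higher and 0 lower. The same test without a filter called Nkx2-1, Otp, Skor1 and Fezf1, against 0.446% of its genes called higher.

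**Figure D1:**
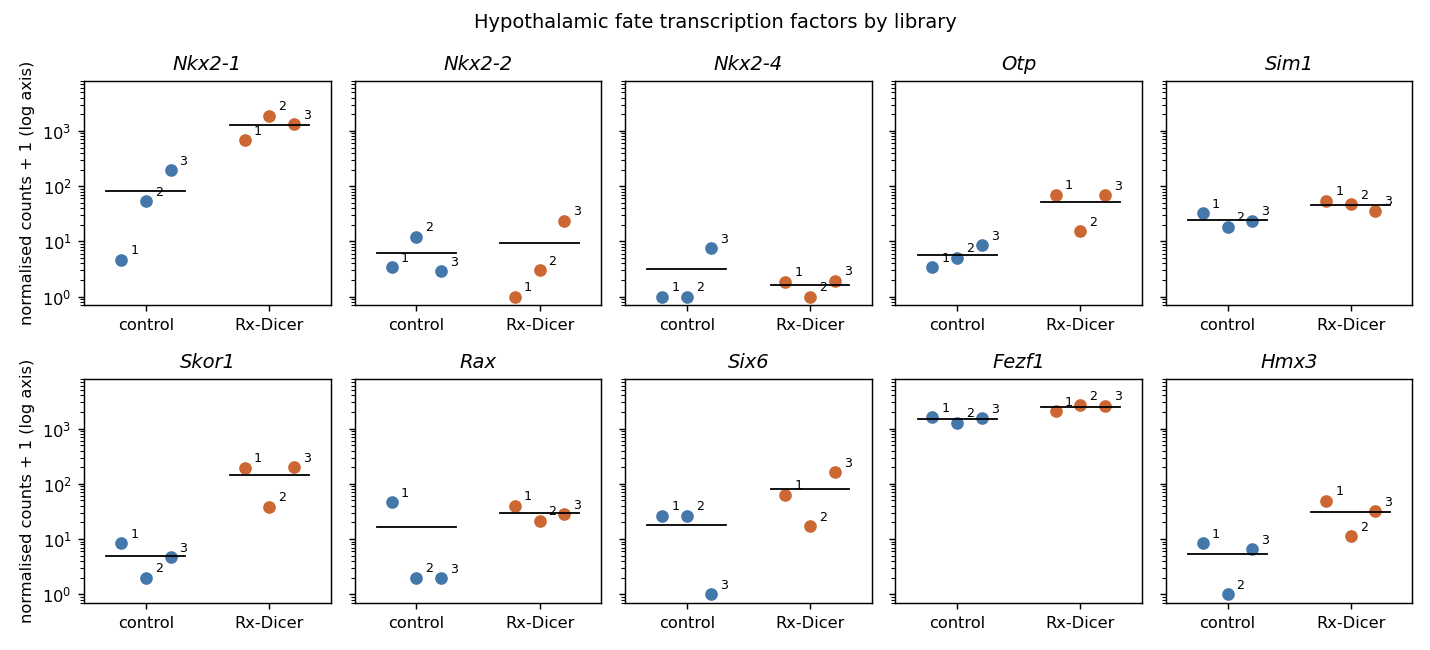
Normalised counts plus 1 on a log axis for each of the 10 genes, with 1 point per library, the replicate number beside it and a line at the mean of each genotype (n = 3 libraries each). Nkx2-1, Otp, Sim1, Skor1, Fezf1 and Hmx3 have all 3 Rx-Dicer points above all 3 control points, while Nkx2-2, Nkx2-4, Rax and Six6 overlap.

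Among the regional determinants, Nkx2-1 was the most abundant. This homeobox gene of the ventral hypothalamus and medial ganglionic eminence lies on chr12:56531958-56536908 on the minus strand (GRCm38). It had 3.66, 51.9 and 192 normalised counts in control 1, 2 and 3, and 682, 1882 and 1307 in Rx-Dicer 1, 2 and 3. The groups did not overlap, and the lowest Rx-Dicer library was 3.56 times the highest control library. The control libraries alone ran from 3 to 204 reads. Its mean was 82.4 ± 97.6 (SD) in control and 1290 ± 600.2 in Rx-Dicer. By DESeq2 it was higher by 3.97 ± 1.26 (SE) on the log2 scale at an adjusted p of 0.0549, just outside the threshold. The call turned with the libraries and settings used. The log2 fold change was 3.40 with a DESeq2 adjusted p of 0.00145 without control 1, and 5.53 with a DESeq2 adjusted p of 0.000987 without control 3. It did not pass without control 2 (3.72, DESeq2 adjusted p of 0.329), without the library labelled Rx-Dicer 2 (3.60 ± 1.55, DESeq2 adjusted p of 0.232), or without Rx-Dicer 1 or Rx-Dicer 3. It passed with DESeq2 on filtered counts (adjusted p of 0.044) and on the second file of each sample alone (adjusted p of 0.0333).

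Rax, a homeobox gene needed for eye and hypothalamus formation, had 45.2, 1.02 and 0.939 normalised counts in the control libraries and 39.5, 20.4 and 27.6 in the Rx-Dicer libraries. Control 1 was thus the highest of all 6, and the other control libraries held 1 read each. The log2 fold change was 0.91 ± 1.01 with a DESeq2 adjusted p of 0.839. This value turned on control 1: without it the log2 fold change was 4.90 ± 1.20 on 2 control reads, with no adjusted p given, and without control 2 or control 3 it was 0.35. It was 1.11 ± 1.40 without the library labelled Rx-Dicer 2. Because Cre is driven by Rax sequences, reads from the transgene may count towards this gene, and their part was not tested. Six6, a homeobox gene of retina, pituitary and hypothalamus, had 25.7, 25.5 and 0 normalised counts in control and 62.6, 16.3 and 163 in Rx-Dicer. The library labelled Rx-Dicer 2 lay inside the control range, and the log2 fold change was 2.24 ± 1.61 with a DESeq2 adjusted p of 0.640, and 2.73 ± 1.87 without that library.

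Nkx2-2, a target of sonic hedgehog in ventral progenitors, had 2, 11 and 2 reads in control and 0, 2 and 24 in Rx-Dicer. Its groups overlapped, and most Rx-Dicer reads came from 1 library. Nkx2-4, the closest relative of Nkx2-1 in the hypothalamus, had 0, 0 and 7 reads in control and 1, 0 and 1 in Rx-Dicer. A difference in either gene was not detectable at this depth. Both lie on chromosome 2, 92101 bases apart. Antisense genes overlap Nkx2-1 (Gm26973), Nkx2-2 (Nkx2-2os and 6430503K07Rik) and Rax (Raxos1), and they held at most 4 reads per library. Six6 overlaps the start of 4930447C04Rik, which had 39 to 100 reads per library, and Hmx3 lies within an annotated span of Fgfr2, both on the opposite strand. The libraries were strand-specific and counted by strand, so these reads were kept apart.

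Of the regulators of neuronal identity, Skor1 had the largest fold change. Skor1 is a SKI-family transcriptional corepressor of embryonic neurons, on chr9:63138170-63148961, minus strand. Its normalised counts were 7.33, 1.02 and 3.76 in control and 194, 37.7 and 201 in Rx-Dicer. Every Rx-Dicer library was above every control library, and the library labelled Rx-Dicer 2, the lowest of its group, was 5.14 times the highest control. The control value rested on 11 reads in all (95% exact Poisson interval 5.49 to 19.7), against 474 in Rx-Dicer. The log2 fold change was 5.20 ± 0.69 with a DESeq2 adjusted p of 8.1e-11, rank 2 by fold change and rank 8 by adjusted p among the 300 genes called higher. Without the library labelled Rx-Dicer 2 it was 5.67 ± 0.56.

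Otp, the homeobox gene required for neurosecretory neurons of the paraventricular and supraoptic nuclei, lies on chr13:94875602-94885130, plus strand. It had 2.44, 4.07 and 7.52 normalised counts in control and 69.5, 14.3 and 67.5 in Rx-Dicer. Again the groups were apart and the library labelled Rx-Dicer 2 was the lowest Rx-Dicer value, at 1.90 times the highest control. The control libraries held 14 reads in all (95% exact Poisson interval 7.65 to 23.5) and the Rx-Dicer libraries 166. The log2 fold change was 3.40 ± 0.74, a 10.6-fold difference, with a DESeq2 adjusted p of 0.000696. Without the library labelled Rx-Dicer 2 it was 3.84 ± 0.64. Without Rx-Dicer 1 or Rx-Dicer 3 it was 3.11 ± 0.96 or 3.15 ± 0.95, and no adjusted p was given at that depth.

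Hmx3, a homeobox gene of the inner ear and of hypothalamic growth hormone-releasing hormone neurons, lies on chr7:131542867-131544925, plus strand. It had 7.33, 0 and 5.64 normalised counts in control and 48.9, 10.2 and 31.4 in Rx-Dicer. The groups were apart by 1.39 times, on 12 control reads and 100 Rx-Dicer reads. The log2 fold change was 2.82 ± 0.88 with a DESeq2 adjusted p of 0.0472, just inside the threshold, and 3.24 ± 0.95 without the library labelled Rx-Dicer 2. Without control 2, which held no Hmx3 reads, it was 2.23 ± 0.87 with a DESeq2 adjusted p of 0.246, and leaving out any of the other libraries but Rx-Dicer 2 left too few reads for an adjusted p. Sim1, the bHLH-PAS gene that acts beside Otp in paraventricular neurons, had 31.8, 17.3 and 22.6 normalised counts in control and 53.2, 45.9 and 35.2 in Rx-Dicer. Its groups did not overlap, and its log2 fold change of 0.92 ± 0.45 had a DESeq2 adjusted p of 0.355 and did not pass. It was 0.90 ± 0.53 without the library labelled Rx-Dicer 2.

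The start-site windows of Skor1, Otp and Hmx3 are shown because these 3 genes were called and followed a like course over the libraries. Each runs 5′ to 3′ on the gene's strand, 250 bases before to 50 bases after a RefSeq start site (GRCm38.p6), with every CG dinucleotide in capitals. Skor1 (chr9:63148912-63149211, minus strand) has 46 of them, Otp (chr13:94875386-94875685, plus strand) has 20 and Hmx3 (chr7:131542713-131543012, plus strand) has 39.
Skor1: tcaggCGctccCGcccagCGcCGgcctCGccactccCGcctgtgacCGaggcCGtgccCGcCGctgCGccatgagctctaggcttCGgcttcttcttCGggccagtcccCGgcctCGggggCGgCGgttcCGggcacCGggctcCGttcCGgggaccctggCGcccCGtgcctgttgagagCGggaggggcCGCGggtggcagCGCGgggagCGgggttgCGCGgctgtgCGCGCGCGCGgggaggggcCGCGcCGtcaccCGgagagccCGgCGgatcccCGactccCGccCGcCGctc
Otp: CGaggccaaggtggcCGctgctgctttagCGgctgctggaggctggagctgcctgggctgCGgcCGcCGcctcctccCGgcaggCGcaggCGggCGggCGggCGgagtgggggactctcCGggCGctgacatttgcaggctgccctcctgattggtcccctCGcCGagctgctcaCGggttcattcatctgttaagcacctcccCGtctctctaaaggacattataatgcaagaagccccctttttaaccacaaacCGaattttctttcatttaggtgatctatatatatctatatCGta
Hmx3: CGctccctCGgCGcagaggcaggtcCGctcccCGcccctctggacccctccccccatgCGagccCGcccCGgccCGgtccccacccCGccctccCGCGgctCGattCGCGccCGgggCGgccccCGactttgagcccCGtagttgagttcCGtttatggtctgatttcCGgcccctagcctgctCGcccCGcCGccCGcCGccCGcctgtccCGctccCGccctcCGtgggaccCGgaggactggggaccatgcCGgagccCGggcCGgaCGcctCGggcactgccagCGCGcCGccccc
RefSeq gives 3 start sites for Skor1. The one shown is the annotated 5′ end of the gene, and the windows of the others hold 15 and 17 CG dinucleotides. The windows found for 9 of the 10 genes held between 12 and 46 CG dinucleotides, against a median of 7 over 32851 mouse windows, and 39.6% of all windows held at least 12. On both strands 3 motifs were searched, chosen after the values were seen. The NKX2 motif TNAAGTG, present in 11.54% of all windows, was in the Nkx2-2 window alone. The GLI motif GGGTGGTC, present in 0.81% of all windows, was in none of the windows of these 9 genes. TATAAA, present in 13.62% of all windows, was in the Sim1 window alone. The letters searched were therefore absent from the windows of the 4 genes called higher, which says nothing of the factors themselves.

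Fezf1, a zinc-finger repressor of forebrain progenitors, was the only abundant member in control tissue. It lies on chr6:23245044-23248362, minus strand. It had 1618, 1276 and 1524 normalised counts in control and 2043, 2646 and 2620 in Rx-Dicer, so the groups did not overlap. Here the library labelled Rx-Dicer 2 was the highest. The mean rose from 1473 ± 177 (SD) to 2436 ± 341, and the log2 fold change was 0.73 ± 0.15, a 1.65-fold difference, with a DESeq2 adjusted p of 0.000519. It was 0.67 ± 0.18 without the library labelled Rx-Dicer 2.

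**Figure D2:**
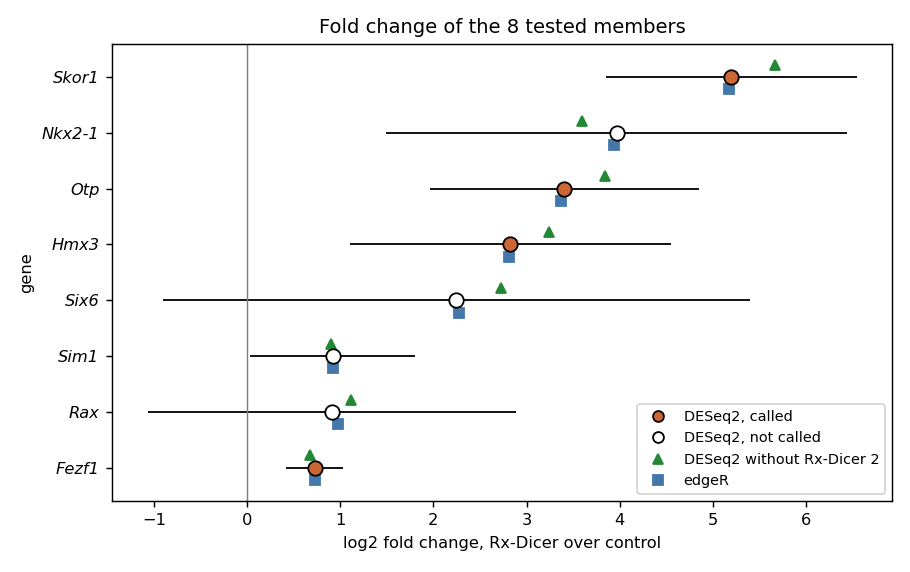
Log2 fold change of Rx-Dicer over control for the 8 tested genes, with circles for DESeq2 (filled where called), bars for the 95% interval of the estimate, triangles for DESeq2 without the library labelled Rx-Dicer 2 and squares for edgeR on filtered counts. All 8 estimates are above 0 in each of these fits, from 0.73 in Fezf1 to 5.20 in Skor1 with DESeq2, and the intervals of Rax and Six6 cross 0.

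Per kilobase of exon, the order of levels changed between genotypes. In control, Fezf1 led with 611 normalised counts per kilobase, apart from Nkx2-1 at 29.0, and from Nkx2-1 down to Skor1, last at 1.06, each gene's range over the libraries overlapped that of the next. In Rx-Dicer, Fezf1 (1011) and Nkx2-1 (454) led and were apart from each other and from Skor1 (37.9), followed by Hmx3 (20.7), Six6 (20.1), Otp (17.5), Sim1 (5.19), Rax (4.98), Nkx2-2 (2.88) and Nkx2-4 (0.349), all overlapping with their neighbours. Skor1 thus moved from last place in control to the third in Rx-Dicer.

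The members followed different courses within the Rx-Dicer group, a pattern noted after the values were seen. Skor1, Otp, Hmx3 and Six6 were between 3.08 and 9.97 times higher in Rx-Dicer 1 and 3 than in the library labelled Rx-Dicer 2. Nkx2-1 ran the other way, with Rx-Dicer 1 at 0.362 and Rx-Dicer 3 at 0.695 of the library labelled Rx-Dicer 2. Bsx, a homeobox gene of hypothalamic feeding neurons, was like the first set: it had 6.11, 4.07 and 2.82 normalised counts in control and 188, 14.3 and 188 in Rx-Dicer. Shh, the sonic hedgehog ligand, had 18.3, 33.6 and 47.9 in control and 112, 570 and 201 in Rx-Dicer, and so ordered the libraries as Nkx2-1 did. Lhx8, a LIM-homeobox gene of the medial ganglionic eminence, gave that order too, with 6.11, 25.5 and 29.1 in control and 77.2, 185 and 98.9 in Rx-Dicer. With 3 libraries a genotype, these courses are a description.

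**Figure D3:**
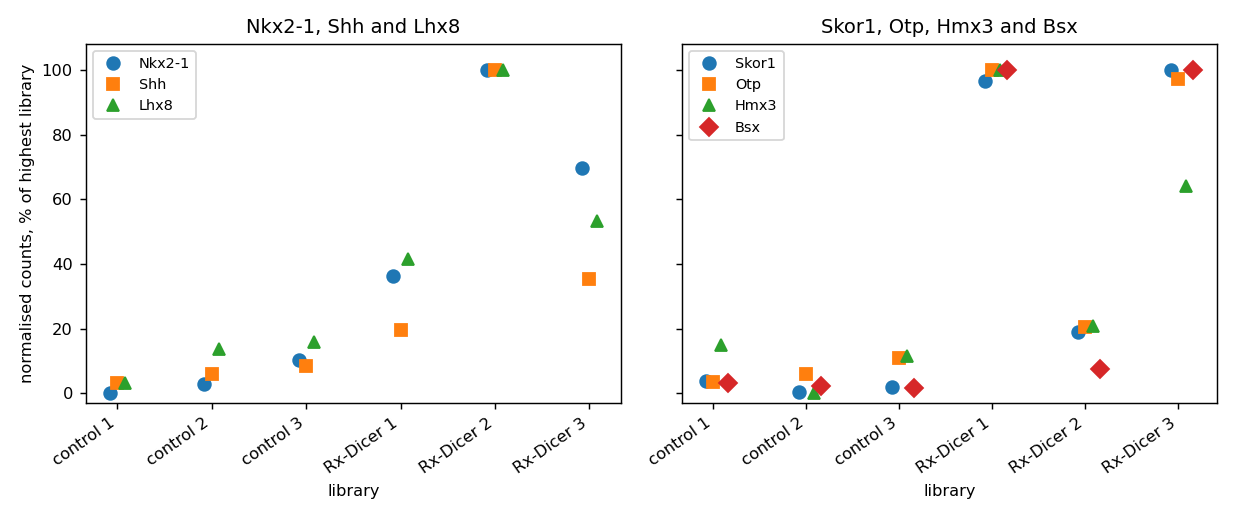
Normalised counts in each library as a percentage of the gene's highest library, for Nkx2-1, Shh and Lhx8 (left) and Skor1, Otp, Hmx3 and Bsx (right), with 1 point per library. The left set is highest in the library labelled Rx-Dicer 2, where the right set reaches 7.58% to 20.8% of its highest library.

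Beyond the 10 genes, 28 other hypothalamic regulators were listed. By DESeq2, of the 20 tested, 5 were called higher and 2 lower, with a median log2 fold change of 0.49 over those tested. Among all genes tested, 1.75% were called higher and 1.18% lower, and the calls of the lists that follow stand beside the same shares. Bsx had a log2 fold change of 4.92 ± 1.09 with a DESeq2 adjusted p of 0.00107. Six3, Vax1, Foxd1 and Lhx1 were higher by 1.27, 1.08, 0.70 and 1.00 on the log2 scale, with DESeq2 adjusted p of 6.27e-06, 0.00261, 0.0142 and 0.00393. Six3, Vax1 and Foxd1 also pattern the rostral telencephalon or optic stalk. Prdm12 fell by 0.82 and Pomc, the precursor of melanocortin peptides in arcuate neurons, fell by 0.77 on the log2 scale, with DESeq2 adjusted p of 0.033 and 0.0357. Most of these calls turned on single libraries. Bsx and Six3 passed whichever library was left out. Without the library labelled Rx-Dicer 2, Vax1 (0.84, DESeq2 adjusted p of 0.051) and Foxd1 (0.61, DESeq2 adjusted p of 0.0959) did not pass, and the list held 3 higher and 3 lower calls. Without control 2, 2 were called higher and 0 lower, and Vax1, Foxd1, Lhx1, Prdm12 and Pomc did not pass. Lhx1, Prdm12 and Pomc also did not pass without control 3, Rx-Dicer 1 or Rx-Dicer 3, nor did Foxd1 without control 1 or Rx-Dicer 3. With edgeR on filtered counts, 0 genes of this list or of the lists that follow passed. Foxb1 of the mammillary region and Nr5a1 of the ventromedial nucleus had at most 7.13 normalised counts in any library.

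Of 10 nearest paralogs, 4 were tested and 1, Six3, was called higher. Fezf2, the paralog of Fezf1, had a log2 fold change of -0.26 ± 0.59 with a DESeq2 adjusted p of 0.948. Nkx2-3 had 0.38 ± 0.29 with a DESeq2 adjusted p of 0.681. Hmx1, a paralog of Hmx3, had 14.7, 36.7 and 129.6 normalised counts in control and 22.3, 10.2 and 16.2 in Rx-Dicer. Its groups overlapped, and its log2 fold change was -1.90 ± 0.68 with a DESeq2 adjusted p of 0.114. Without control 1 it was called lower. Hmx2, which lies 3848 bases from Hmx3, had 15.9, 1.02 and 0 normalised counts in control and 26.6, 6.11 and 16.2 in Rx-Dicer, and Nkx2-9, 74481 bases from Nkx2-1, had 0, 0 and 3.76 and then 18.0, 21.4 and 2.85. Sim2 had 4.89, 4.07 and 9.39 and then 23.2, 3.06 and 10.5. Skor2 held no reads in control and at most 3.43 normalised counts in Rx-Dicer. None of Hmx2, Nkx2-9, Sim2 and Skor2 had enough reads for an adjusted p, and each overlapped between the genotypes.

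Of the 10 genes of sonic hedgehog signalling and the ventral midline, 8 were tested and 3 were called higher by DESeq2. At an unadjusted p under 0.05, 5 were higher and 0 lower, beside the 4.05% and 3.46% of all genes. Shh was higher by 3.14 ± 0.77 on the log2 scale with a DESeq2 adjusted p of 0.00518. It was higher by 2.23 ± 0.49 without the library labelled Rx-Dicer 2, and did not pass without control 2 (3.15, DESeq2 adjusted p of 0.0719). Nkx6-2, a ventral homeobox target, was higher by 2.40 ± 0.70, and did not pass without control 1, control 2, Rx-Dicer 3 or the library labelled Rx-Dicer 2 (DESeq2 adjusted p of 0.104 to 0.732). Gli1 and Ptch1, the standard readouts of the pathway, had log2 fold changes of 0.70 and 0.86 with DESeq2 adjusted p of 0.803 and 0.345, and overlapped. Foxa2, which marks the floor plate, had at most 6.11 normalised counts in any library.

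Levels of other territories and cell types moved with some libraries, and their part in the results was not tested. Of 13 subpallial genes 2, Lhx6 and Lhx8, were called higher, and the summed level ran from 24500 to 35490 normalised counts in control and from 26160 to 39000 in Rx-Dicer. Zic1, which is not particular to the subpallium, made up 52.6% to 79.6% of that sum. Both calls held whichever library was left out. Dlx1, Dlx2 and Gsx2 were high in control 3 and in the library labelled Rx-Dicer 2 and overlapped between genotypes. Of 12 pallial and telencephalic genes 2, Pax6 and Eomes, were called lower, with sums of 52540 to 79900 and 48180 to 66530. Pax6 did not pass without control 2, and Eomes did not pass without control 1, control 2, Rx-Dicer 1 or the library labelled Rx-Dicer 2. None of 11 eye genes, 9 thalamic and prethalamic genes, 14 midbrain, hindbrain and spinal cord genes, 9 pituitary genes, 9 head mesenchyme genes or 6 neuronal genes was called over all libraries by DESeq2, in which 34 of these 58 genes had an adjusted p, or by edgeR on filtered counts. At an unadjusted p under 0.05 by DESeq2, 2 of the 58 genes were higher and 3 lower, beside 4.05% and 3.46% of all genes with a p-value. In the eye list the sums ran from 550.5 to 1088 in control and 340.3 to 1112 in Rx-Dicer, in the thalamic list from 4214 to 5053 and 4856 to 6475, and in the midbrain to cord list from 135.5 to 617 and 442 to 1097. The pituitary sums ran from 159 to 1102 and 237 to 638, the mesenchyme sums from 35080 to 78880 and 52990 to 67930, and the neuronal sums from 61220 to 77150 and 51560 to 68750. The pituitary marker Pou1f1 and the hindbrain genes Hoxb1, Hoxd3 and Hoxd4 were at 0 in every library. Other genes of those lists were detected: Pitx1, of the oral ectoderm and pituitary, had 3.66, 12.2 and 3.76 normalised counts in control and 92.6, 3.06 and 3.80 in Rx-Dicer, and Hoxb4 had 3 reads in control and 17 in Rx-Dicer. Pax3, a dorsal neural tube and neural crest gene, had 121, 35.6 and 133 normalised counts in control and 377, 368 and 143 in Rx-Dicer, with a DESeq2 adjusted p of 0.211. It passed without Rx-Dicer 3. Without single control libraries, Pax2 and Pax5 (control 1) and the mesenchyme genes Foxc1, Foxc2 and Pdgfra (control 3) were called higher. Of the neuronal genes, Tubb3 was called lower without Rx-Dicer 1, and Elavl3 was called lower without the library labelled Rx-Dicer 2. Of 7 blood and microglia genes 2 were called higher, Csf1r and Cx3cr1. Both passed without the library labelled Rx-Dicer 2, as did Aif1, and neither passed without control 2, control 3, Rx-Dicer 1 or Rx-Dicer 3 (DESeq2 adjusted p of 0.087 to 0.329). Cx3cr1, a microglial receptor, had 283, 194 and 236 normalised counts in control and 796, 282 and 531 in Rx-Dicer, and like Skor1 and Otp was higher in Rx-Dicer 1 and 3. The summed level of that list, mostly haemoglobin, ran from 397300 to 913600 in control and 328500 to 905400 in Rx-Dicer.

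**Figure D4:**
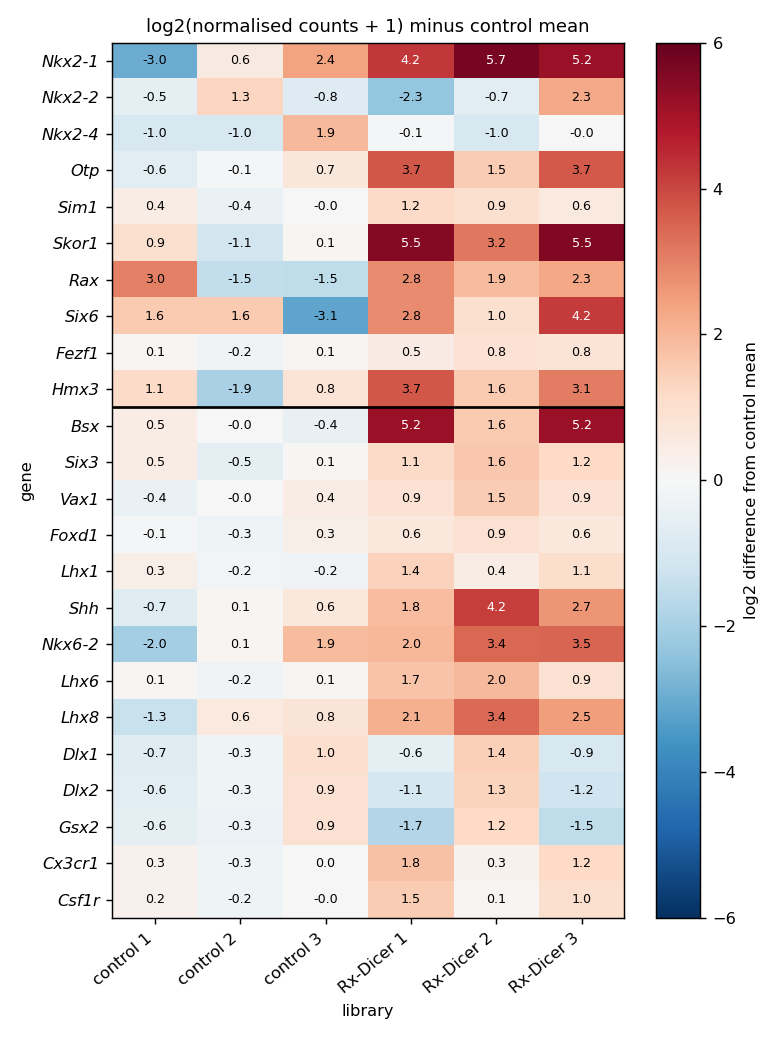
Log2 of normalised counts plus 1, minus the control mean of the gene, for the 10 genes (above the line) and 14 genes of the other lists (below it), by library, with red for higher and blue for lower values. Skor1 stands 5.50, 3.17 and 5.55 above its control mean in Rx-Dicer 1, 2 and 3, and Dlx1, Dlx2 and Gsx2 are highest in the library labelled Rx-Dicer 2 and lower in the others of that group.

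The genes whose course over the 6 libraries was most like the members' mean course, among genes with a mean of at least 50 normalised counts, were Arrdc3 (Pearson r = 0.996), Wwp1 (0.994), Nxpe3 (0.988), Snx13 (0.988), Rest (0.987) and Abhd13 (0.987). These correlations are descriptions over 6 libraries that share a genotype split. Arrdc3, an arrestin-domain protein, had 1731, 1436 and 1604 normalised counts in control and 2993, 2374 and 3334 in Rx-Dicer, and Rest, a repressor of neuronal genes, had 3149, 2883 and 3290 and then 4184, 4070 and 4865. The members' mean course, in standard deviations, was -0.39, -0.81 and -0.47 in control and 0.56, 0.25 and 0.86 in Rx-Dicer.

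Because Dicer matures most microRNAs, the 3′ UTRs of the 10 genes were searched for the seed matches of 2 microRNAs of the embryonic brain, let-7a-5p and miR-9-5p, chosen after the values were seen. Their mature sequences from RefSeq, with the seed (bases 2 to 8) in capitals, are shown because the search rests on them.
let-7a-5p: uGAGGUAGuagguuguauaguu
miR-9-5p: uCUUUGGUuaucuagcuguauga
A 7-base match to let-7a-5p was present in the longest annotated 3′ UTR of 9.0% of 20990 genes, and a match to miR-9-5p in 12.2%. Among the members, Rax had 1 let-7a-5p match, and Sim1 and Nkx2-4 had 1 miR-9-5p match each. In the Sim1 3′ UTR (position 899) and the Nkx2-4 3′ UTR (position 286) the matches, in capitals, read as follows.
Sim1: tacacaagtaACCAAAGAagatct
Nkx2-4: cacgttcctaACCAAAGctctcaa
None of Otp, Skor1, Hmx3, Fezf1 and Nkx2-1 had a match to either seed. A match is a description of letters and not a measured target site, and other microRNAs were not searched.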

How the data were processed

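Total RNA from 6 dissected samples (3 control, 3 Rx-Dicer, grouped by the labels) was sequenced with strand-specific libraries on an Illumina HiSeq instrument. Per the labels and methods, the authors processed reads with FastQC, Trim Galore 0.6.5, HISAT2 and HTSeq 0.12.4 on GRCm38.p6, and deposited raw counts per gene in 2 files for each sample. The files of a sample differed by little more than counting noise (chi-square per degree of freedom 1.11 to 1.47, against 20.5 to 29.64 between samples of a group) and were summed. Rows naming no gene (24.89% to 31.04% of reads tallied) were left out. No column of per-sample values went unused.

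From these counts, DESeq2 1.42.0 in R 4.3.3 (Wald test, genotype as the only term, unshrunken fold changes, Benjamini-Hochberg adjustment, independent filtering) gave the main result, after the study's tool and thresholds, and edgeR 4.0.16 was the first alternative. Levels use DESeq2 size factors and figures a pseudocount of 1. Counting intervals are 95% exact Poisson. Positions and exon lengths come from GENCODE, where 55230 of 55471 identifiers matched, and promoters and microRNAs from RefSeq. On simulated counts both tools recovered most changed genes, with a share of wrong calls above the nominal rate, more so in DESeq2. With 3 libraries against 3, an exact permutation test of 1 gene cannot reach 0.05: its smallest two-sided p is 0.1.

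The 10 members and the gene lists were chosen with earlier results of these data known. Named were all members, the called genes of each list, the nearest paralogs, the 6 genes most like the members, Dicer1 and overlapping genes. The rule also took the most abundant genes of each list, which are given here within the lists' sums. Some genes counted in the lists are not reported here by name. Bsx, Shh, Lhx8, Dlx1, Dlx2, Gsx2, Foxa2, Foxb1 and Nr5a1 were set beside the members' library courses or levels after their values were seen. Emx1, Neurog2 and Lhx2 were likewise set beside Emx2 after their values were seen. Alternatives changed the scaling, filters, thresholds, files, tool, block and libraries used.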

Additional observations from a re-analysis of the deposited data

How the results depend on the processing

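The count of members called higher (4) was 0 with edgeR on filtered counts, 2 with the first file of each sample alone, 3 to 4 with the other scalings, filters and fold minimum, and 5 at an adjusted p under 0.1. Leaving out 1 library gave 2 to 4 called: 2 without Rx-Dicer 1 and 2 without Rx-Dicer 3, in both of which Otp and Hmx3 had no adjusted p. No member was called lower in any alternative run, and no tested member changed direction. The median log2 fold change of the members (1.58) was 2.54 with edgeR on filtered counts and 2.53 with DESeq2 on filtered counts, in both because only 8 members were fitted. Leaving out 1 library gave medians of 1.14 to 2.89, the highest without control 1, and the cause was not tested. Nkx2-1 passed in 7 of 19 alternatives, while, of the alternatives that gave an adjusted p, Hmx3 lost its call in 5 of 12, Fezf1 in 2 of 19, Otp in 1 of 15 and Skor1 in 1 of 19. With the replicate number as a replicate block, 5 members were called (the same 4 and Nkx2-1, log2 fold change 5.08). Same-numbered libraries did not consistently deviate together (r = 0.287, -0.015 and -0.264, within the -0.27 to 0.312 of other pairs). The study compared mutants with control littermates, and which libraries share a litter is not stated. With 3 libraries a genotype, these correlations cannot decide whether same-numbered libraries are paired. Members with few reads (Nkx2-2, Nkx2-4) are limited by depth.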
